A study of Brassica napus with 36 samples.

Results

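The study grew 2 groups of plants at the same temperatures without a cold treatment, and these control groups were compared with each other: MB, the control of the plants given cold with no acclimation, and MA, the control of the acclimated plants. They make up 12 of the 36 libraries, 3 for each of MB and MA in each of the varieties HX17 and HX58, and were taken by their labels alone. MB seedlings of HX17 and HX58 stood for 6 weeks and a further 12 h at 20° by day and 16° by night, and MA seedlings of the same varieties for 4 weeks, a further 14 days and 12 h at the same temperatures. By the study's scheme both groups therefore had the same total age, the same 14 h of light and 10 h of dark, and no cold. Both varieties of rapeseed (Brassica napus) are early-maturing and semi-winter, and the third leaf from the top was taken at 8 in the morning. Incubator, sowing date and RNA batch are not given for MB and MA, so anything of that kind cannot be told apart from the control group. Nothing in the labels says how many plants a library holds, and where replicates are technical the p-values measure that spread only.

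Rapeseed is a young hybrid of Brassica rapa (A chromosomes) and Brassica oleracea (C chromosomes), so most Arabidopsis genes have several copies, here called loci. A symbol stands for the deposited best Swiss-Prot match of a locus, mostly an Arabidopsis thaliana protein, and the roles given are known from that plant unless another is named. Reads of near-identical A and C copies may be shared between them. In leaves, touch, wounding and elicitors of immunity raise cytosolic calcium within minutes, and calmodulin-like proteins, WRKY and ethylene-responsive (ERF) transcription factors and the zinc finger factor ZAT10 are early transcribed answers to it. Other large groups of leaf transcripts, such as those of light-harvesting proteins, follow light, age and the circadian clock.

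The 12 libraries held 32214015 to 48490331 counts and 59789 to 67037 genes with at least 1 count. The squared correlation of log2(CPM + 1) between libraries of the same group was 0.908 to 0.972 (CPM, counts scaled to library size after TMM normalization). HX58_MB replicate 3 stood apart: its 100 most counted genes held 25.2% of its counts, against 20.2% and 20.1% in HX58_MB replicates 1 and 2 and 22.0% to 25.2% in the HX58_MA libraries, and each HX58_MA library had it as the nearest library of another group. HX17_MA replicate 2 was at 0.912 and 0.921 with its own group. The lowest value within a group, 0.908, was between HX58_MA replicates 2 and 3. With HX58_MB replicate 3, HX58_MA replicate 2 was at 0.936, above its value with HX58_MA replicate 3. Summed leaf markers (Rubisco small subunit, Rubisco activase and CAB genes, 17 loci) were at 45885 to 51997 CPM in HX17_MB, against 61336 to 72575 CPM in HX17_MA, and at 37759 to 62283 CPM in HX58_MB, against 52207 to 67762 CPM in HX58_MA. Root markers summed to 44.8 to 69.0 CPM in MB, against 61.7 to 87.9 CPM in MA, with 24 of their 39 loci at 0 in all 12 libraries, and shoot meristem and flower markers each stayed under 1 CPM in every library. Phloem companion cell markers were at 185.3 to 331 CPM in HX58_MB, against 105 to 184.6 CPM in HX58_MA, so the ranges all but met. In HX17 the ranges overlapped, at 133 to 261 CPM in MB and 134 to 166 CPM in MA. In bulk leaves fewer cells of a type and less RNA per cell cannot be told apart.

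In HX17 a large block of genes of calcium, defence and ethylene signalling was higher in MB. Of 51136 genes tested, 564 (1.1%) were called, that is, changed at least 2-fold with an adjusted p under 0.005 in edgeR's quasi-likelihood test. Of these, 442 (0.864%) rose in MB and 122 (0.239%) fell, and 112 of the 442 rose at least 16-fold, with a median of 2.98 on the log2 scale. At an adjusted p under 0.05 with no limit on the fold, 1272 genes (2.49%) were higher and 852 (1.67%) lower. The A and C chromosomes shared in the calls alike, with 1.14% of tested A genes and 1.07% of tested C genes called. The number of calls was 736 without HX17_MA replicate 2, but 236 without HX17_MA replicate 1, 248 without HX17_MA replicate 3, and 259, 269 and 197 without HX17_MB replicates 1, 2 and 3. With library totals in place of TMM scaling the median of all genes moved to 0.26 and the calls to 563 higher and 78 lower.

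Some proteins had several loci called in HX17. The 41 proteins with 3 or more called loci were picked by that count, and 36 had higher loci and 5 had lower ones. Of all calls in HX17, 78.4% were higher. Some of the 41 had a small part of their loci called, such as RLP12 with 7 of 83. In 8 of the 41 every tested locus was called higher. These were WRKY33 (6 of 6 loci), the calcium-binding protein PBP1 (5 of 5), WRKY53, ERF104, ERF5, ZAT10 and the galacturonosyltransferase-like GATL10 (4 of 4 each) and the calcium-binding CML30 (3 of 3). Among the others were the calcium-dependent kinase CPK28, the ethylene factor ERF11 and the nematode resistance-like HSPRO2 (5 of 6 each), the immune lipase-like EDS1B (4 of 5) and SARD1 (3 of 4), an activator of salicylate synthesis.

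WRKY factors, which bind the promoters of many defence genes, gave 20 called loci of 151 tested in HX17, all higher, with a median over the tested loci of 0.40, against -0.01 for all tested genes. With library totals these medians were 0.66 and 0.26. The 20 calls fell to 12 without HX17_MA replicate 1, 13 without HX17_MA replicate 3, and 13, 11 and 9 without HX17_MB replicates 1, 2 and 3. WRKY33, needed for defence against necrotrophic fungi, had a locus on C03 (BnaC03g21360D, 11540511 to 11542476, plus strand) with 70.6, 80.5 and 94 CPM in HX17_MB, against 16.5, 10.5 and 13.9 CPM in HX17_MA. The groups did not overlap, and the log2 fold change was 2.57 ± 0.23 (SE, n = 3 each, adjusted p = 0.000283). WRKY46 (BnaC04g21660D) had 27.6, 19.98 and 33.8 CPM in HX17_MB, against 0.197, 0.166 and 0.446 CPM in HX17_MA, a log2 fold change of 6.60 ± 0.39 (adjusted p = 6.01e-05). It was all but silent in HX17_MA. WRKY18 on A01 (BnaA01g05060D), a factor that also acts early in immunity, had 51.2, 43.6 and 57.0 CPM in HX17_MB, against 5.57, 4.52 and 5.13 CPM in HX17_MA, with a log2 fold change of 3.30 ± 0.21 (adjusted p = 6.01e-05). These 3 calls held with each library left out. WRKY53 (BnaA01g13440D), known for its part in leaf senescence, had 34.2, 56.9 and 58 CPM in HX17_MB, against 10.7, 7.32 and 9.15 CPM in HX17_MA (log2 2.44 ± 0.26, adjusted p = 0.00075), and lost its call without HX17_MA replicate 3 or HX17_MB replicate 3, at an adjusted p of up to 0.00633.

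Of 218 tested ERF loci 21 rose and 3 fell in HX17_MB, with a median of 0.24. The rises numbered 11 without HX17_MA replicate 1 and 12 without HX17_MB replicates 2 or 3, and the falls 0 without HX17_MA replicate 1 or any HX17_MB library. ERF105 (BnaC09g27360D) had 36.9, 39.95 and 41.9 CPM in HX17_MB, against 0.815, 0.599 and 0.837 CPM in HX17_MA. Its log2 fold change was 5.69 ± 0.24 (adjusted p = 2.36e-05), the lowest adjusted p in the comparison. ERF104, which a mitogen-activated kinase releases when flagellin is sensed, had a locus (BnaC02g48800D) with 38.9, 53.3 and 60.5 CPM in HX17_MB, against 1.38, 0.399 and 1.00 CPM in HX17_MA (log2 5.75 ± 0.40, adjusted p = 8.28e-05). ERF5 (BnaA06g40170D) had 38.4, 39.3 and 54.5 CPM in HX17_MB, against 2.19, 1.93 and 2.29 CPM in HX17_MA (log2 4.35 ± 0.24, adjusted p = 3.26e-05). All 3 separated the groups fully, as is likely for genes picked by a call, and kept their calls with each library left out. The lower loci included 3 of the 7 tested loci of ERF060.

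Calmodulin-like proteins, which sense calcium through EF hands, gave 14 called loci of 78 tested in HX17, all higher, with a median of 0.61, and 7 to 9 without any library other than HX17_MA replicate 2. CML30 on C07 (BnaC07g25470D) had 31.1, 29.2 and 34.2 CPM in HX17_MB, against 1.69, 1.53 and 1.12 CPM in HX17_MA (log2 4.43 ± 0.24, adjusted p = 3.26e-05). CML45 (BnaC06g12520D) had 31.1, 38.9 and 44.5 CPM in HX17_MB, against 2.81, 4.22 and 1.67 CPM in HX17_MA (log2 3.70 ± 0.34, adjusted p = 0.000347). The spread within each group was small beside these gaps. ZAT10 on A08 (BnaA08g18790D), a repressor induced by many stresses and listed with the cold-regulated genes, had 43.4, 45.4 and 48.1 CPM in HX17_MB, against 5.37, 4.26 and 4.74 CPM in HX17_MA (log2 3.24 ± 0.20, adjusted p = 6.01e-05). The list of cold-regulated and CBF genes had 5 higher loci of 34 in HX17, 4 of them ZAT10. Its median was -0.15, but 0.02 without HX17_MB replicate 3, and with library totals 0.10, against 0.26 for all tested genes.

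Genes of pathogen sensing and salicylate moved the same way. Disease resistance proteins with a nucleotide-binding site and leucine-rich repeats had 9 called loci of 231 in HX17, all higher, with 34 at an adjusted p under 0.05 and a median of 0.48, and 5 without HX17_MA replicate 3 or HX17_MB replicates 1 or 3. At4g33300 on A01 (BnaA01g03580D), annotated ADR1-L1, a helper of other immune receptors, had 58.3, 56.8 and 84.8 CPM in HX17_MB, against 3.09, 1.70 and 2.79 CPM in HX17_MA (log2 4.70 ± 0.30, adjusted p = 6.01e-05). The list of salicylate and pathogenesis-related genes had 7 higher loci of 58, with a median of 0.58. That count was 1 without HX17_MA replicate 3, 3 without HX17_MA replicate 1 or HX17_MB replicate 3, and 4 without HX17_MB replicates 1 or 2. PAD4 on C07 (BnaC07g32870D), which works with EDS1 in basal immunity, had 17.4, 18.5 and 27.3 CPM in HX17_MB, against 5.12, 2.93 and 4.32 CPM in HX17_MA (log2 2.34 ± 0.27, adjusted p = 0.00128), a call lost without 4 of the 6 libraries in turn (adjusted p up to 0.00872). MYC2 (BnaC08g07580D), the main factor of jasmonate answers, had 35.7, 39.5 and 38.8 CPM in HX17_MB, against 5.34, 4.22 and 4.96 CPM in HX17_MA (log2 2.96 ± 0.20, adjusted p = 7.59e-05). It was 1 of 3 jasmonate loci called of 70, and each library left out except HX17_MA replicate 2 left 1 call. The median of that list was 0.08 in HX17, but -0.03 without HX17_MA replicate 1 and -0.07 without HX17_MB replicate 3.

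**Figure D1:**
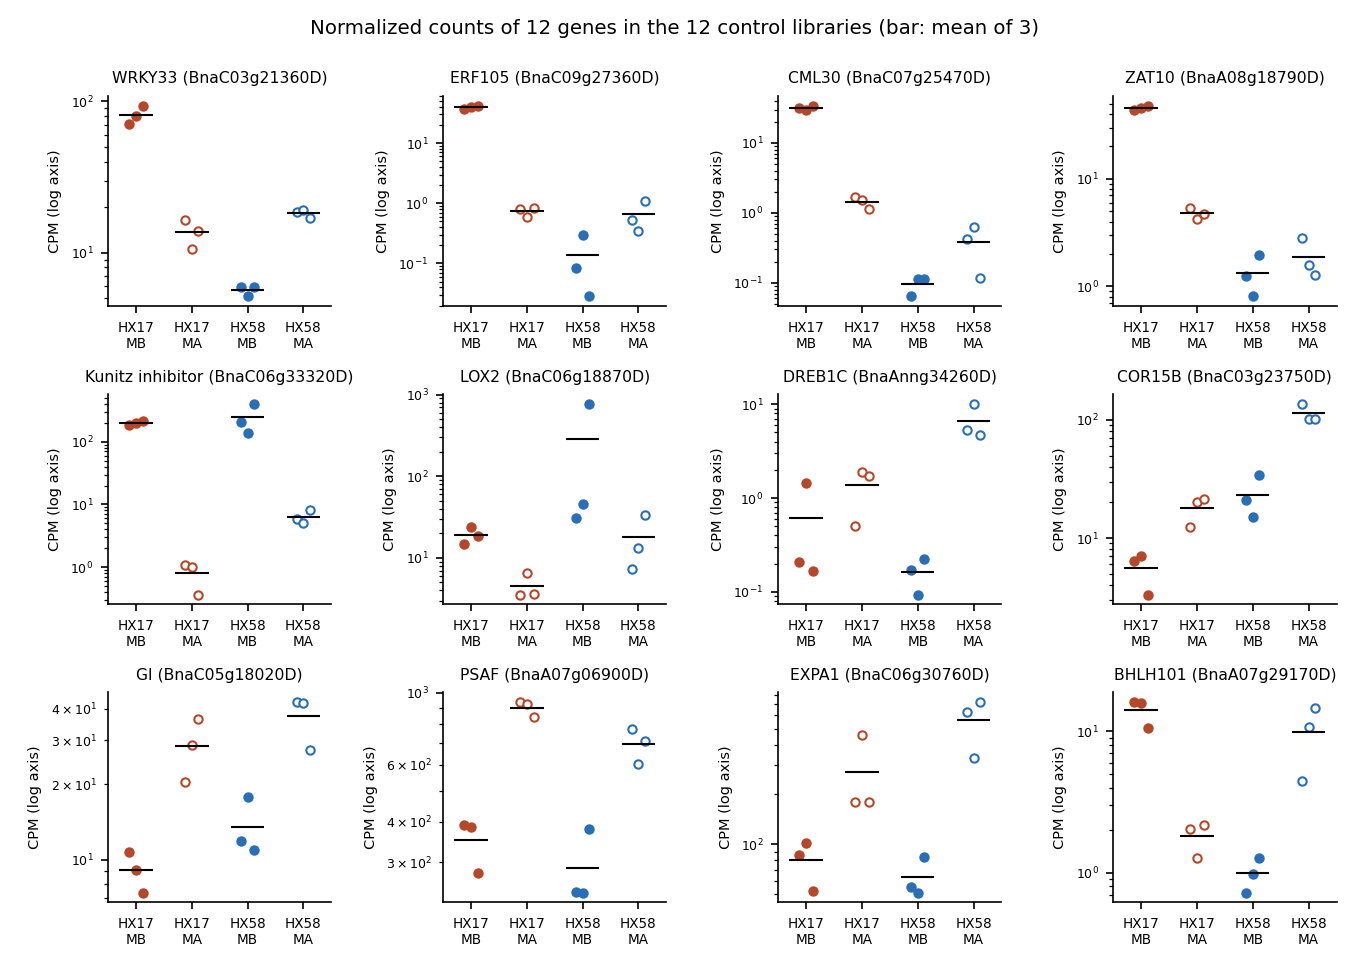
CPM of 12 genes in each of the 12 control libraries on log axes, with MB filled and MA open, HX17 in red and HX58 in blue, and a bar at the mean of 3. WRKY33, ERF105, CML30 and ZAT10 were high in the 3 HX17_MB libraries alone, the Kunitz inhibitor in all 6 MB libraries, and LOX2 reached 774 CPM in HX58_MB replicate 3.

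Cell wall and membrane genes were among the steepest rises in HX17. GATL10 on C07 (BnaC07g25020D), a putative pectin-building enzyme, had 528 counts over the HX17_MB libraries, against 2 over the HX17_MA libraries, a ratio of 255 (95% counting interval 70.2 to 2109, which leaves out the spread between replicates). BAP2 (BnaA04g26410D), a membrane-bound partner of the BON1 protein that restrains cell death, had 563 counts in HX17_MB, against 3 in HX17_MA, a ratio of 181 (61.6 to 881). The phospholipase A1 gene At1g06800 (BnaC05g23260D) had 4.16, 4.90 and 8.14 CPM in HX17_MB, against 0.00, 0.133 and 0.0279 CPM in HX17_MA (log2 6.73 ± 0.66, adjusted p = 0.000444). Each of these was at or near 0 in HX17_MA. Of 101 tested xyloglucan endotransglucosylase and expansin loci 6 rose, among them the touch-inducible XTH22 on A10 (BnaA10g11500D) with 16.4, 10.7 and 20.5 CPM in HX17_MB, against 0.984, 1.66 and 1.42 CPM in HX17_MA (log2 3.53 ± 0.32, adjusted p = 0.000344). The rises numbered 3 without HX17_MA replicate 3 or HX17_MB replicate 3, and the median of that list was -0.36, but 0.36 without HX17_MA replicate 2.

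Other lists gave a few calls in HX17, on some lists in both directions and on others higher only. Abscisic acid genes had 2 higher and 2 lower of 83 (4.82%, against 1.1% of all tested genes): both higher loci were of CYP707A3 and both lower ones of CYP707A2, enzymes that each break down abscisic acid. Antioxidant and glutathione genes had 3 higher and 1 lower of 161 (2.48%), the last being APX1 on C08 (BnaC08g43490D) with 9.59, 8.27 and 6.52 CPM in HX17_MB, against 21.6, 23.2 and 32.3 CPM in HX17_MA (log2 -1.68 ± 0.24, adjusted p = 0.00431, lost without 5 of the 6 libraries). Heat shock genes had 2 higher, of the factors HSFA8 and HSFB2A, and 1 lower of 139 (2.16%). B-box genes had 2 higher of 85 (2.35%), and auxin-responsive genes 2 higher of 170 (1.18%), a share near that of all genes. Without any library other than HX17_MA replicate 2, these counts were 0 or 1 for abscisic acid, 0 to 3 for antioxidant, 1 or 2 for heat shock and 1 for B-box and auxin-responsive genes. BBX32 (BnaA05g19900D), which dampens light signalling, had 9.62, 16 and 18.3 CPM in HX17_MB, against 1.41, 0.732 and 0.948 CPM in HX17_MA (log2 3.81 ± 0.34, adjusted p = 0.000291). In the flavonoid, gibberellin, wax and senescence lists edgeR called 0 loci in HX17, of 17, 18, 65 and 24 tested, and DESeq2 called 0, 0, 4 and 1. At an unadjusted p under 0.05, 3, 1, 4 and 5 of these loci were higher and 1, 3, 20 and 2 lower. Of all 51136 tested genes, 4676 were higher and 5035 lower at that limit. The wax list leaned lower, with 52 of its 65 loci below 0 and a median of -0.64.

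The genes that fell in HX17 had another makeup. Nitrate assimilation gave 3 lower loci of 33 on its list, all of nitrite reductase (NIR1), but 0 or 1 without any library other than HX17_MA replicate 2, and 4 of the 6 tested loci of LBD37, a nitrate-responsive repressor, fell as well. The nitrate reductase gene NIA2 (BnaC06g20690D) had 0.416, 0.567 and 0.580 CPM in HX17_MB, against 22.0, 66.8 and 5.83 CPM in HX17_MA (log2 -5.93 ± 0.83, adjusted p = 0.00342). The HX17_MA libraries differed widely among themselves, and the call was lost without 4 of the 6 libraries in turn (adjusted p up to 0.0307). A defensin-like gene (At3g05727, BnaAnng02700D) had 2 counts over the HX17_MB libraries, against 372 over the HX17_MA libraries, with MA over MB at 193 (95% counting interval 53.0 to 1598). Its call was lost without 4 of the 6 libraries as well (adjusted p up to 0.0124). A gene on C03 that the deposited KEGG column lists as a hypothetical DUF295 protein (BnaC03g26530D) had 4.07, 4.65 and 1.71 CPM in HX17_MB, against 42.7, 80.6 and 87.6 CPM in HX17_MA (log2 -4.36 ± 0.43, adjusted p = 0.000444). A neighbour of the same description (BnaC03g26490D) had 0.356, 0.340 and 0.110 CPM in HX17_MB, against 7.23, 17 and 19.0 CPM in HX17_MA (log2 -5.75 ± 0.51, adjusted p = 0.000294). Both kept their calls with each library left out.

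In HX58 few genes passed the same limits. No WRKY, ERF or calmodulin-like locus was called higher in MB by edgeR, but only 3 of 53281 tested genes were. That absence therefore says little about these families. At an unadjusted p under 0.05, 17 of 152 WRKY loci were higher and 20 lower in HX58. Of 204 ERF loci 20 were higher and 33 lower, and of 63 calmodulin-like loci 8 were higher and 8 lower. Of all 53281 tested genes, 6238 were higher and 6548 lower at that limit. DESeq2 called 1 WRKY locus higher and 8 lower, 3 ERF loci higher and 8 lower, and 1 calmodulin-like locus higher and 2 lower. Of 53281 genes tested, 8 (0.0150%) were called, 3 higher (0.00563%) and 5 lower (0.00938%) in MB. At an adjusted p under 0.05 without a fold limit 938 genes (1.76%) were higher and 1220 (2.29%) lower. The count of calls rested on single libraries: 207 genes were called without HX58_MA replicate 2 and 52 without HX58_MB replicate 3, among them all 3 of the higher and 3 of the 5 lower, and 0 without HX58_MA replicates 1 or 3 or HX58_MB replicates 1 or 2. DESeq2 called 2339 genes in HX58 and 2049 in HX17 at the same limits, and in edgeR 12786 genes in HX58 had an unadjusted p under 0.05 with all libraries.

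The genes called in HX58 were of mixed kinds. DREB1C (BnaAnng34260D), the cold-regulating factor also known as CBF2, had 0.170, 0.0935 and 0.227 CPM in HX58_MB, against 5.34, 10.1 and 4.67 CPM in HX58_MA. It fell by 5.36 ± 0.46 on the log2 scale (n = 3 each, adjusted p = 0.00468). VQ22 (BnaAnng36180D), whose VQ motif binds WRKY factors, had 1.51, 2.00 and 1.67 CPM in HX58_MB, against 13.5, 10.6 and 10.5 CPM in HX58_MA (log2 -2.71 ± 0.23, adjusted p = 0.00463). A gene on C01 annotated IQD22 (BnaC01g41430D), of a calmodulin-binding family, had 1.99, 1.53 and 1.90 CPM in HX58_MB, against 33.1, 20.2 and 22.9 CPM in HX58_MA (log2 -3.79 ± 0.26, adjusted p = 0.00262). The other lower genes were the receptor-like kinase gene At2g23200 (BnaA04g13610D) and the WAT1-related transporter gene At1g70260 (BnaC06g24750D). Of the higher genes, a hypothetical gene on A06 (BnaA06g32290D) had 30.04, 30.3 and 23.1 CPM in HX58_MB, against 0.286, 0.865 and 0.852 CPM in HX58_MA (log2 5.42 ± 0.39, adjusted p = 0.00262). GDH3 (BnaC04g09770D), a subunit of the glycine cleavage system of photorespiration, had 23.9, 27.9 and 18.8 CPM in HX58_MB, against 2.72, 2.55 and 3.58 CPM in HX58_MA (log2 3.03 ± 0.24, adjusted p = 0.00413). Libraries did not overlap for any of these genes, which is no separate support because the same libraries picked them. Each call was lost without at least 4 of the 6 libraries in turn.

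Some lists leaned one way in HX58 below the calling limits. Glucosinolate genes, which make the mustard oil precursors, had a median of 1.11 over 53 tested loci, against 0.02 for all tested genes, and 11 of them were higher at an adjusted p under 0.05 with 0 lower (edgeR called 0, DESeq2 14). Starch metabolism had 16 of 99 loci higher and 2 lower at that limit. These were 16.2% and 2.02%, against 1.76% and 2.29% of all tested genes. Its median was 0.30, and edgeR called 0 loci and DESeq2 17 higher and 2 lower. Jasmonate genes had 67 of 72 tested loci above 0 and a median of 0.85, with 4 higher at that limit, 28 higher at an unadjusted p under 0.05, and 0 calls in edgeR or 5 in DESeq2. LOX2 (BnaC06g18870D), which starts jasmonate synthesis in the chloroplast, had 31.2, 45.8 and 774 CPM in HX58_MB, against 7.38, 13.1 and 33.6 CPM in HX58_MA. HX58_MB replicate 3 was far above all others, the groups overlapped, and the adjusted p was 0.085. In HX17 the same gene had 14.8, 23.6 and 18.3 CPM in MB, against 3.54, 6.49 and 3.57 CPM in MA, a called rise of 2.04 ± 0.30 on the log2 scale (adjusted p = 0.00494) that was lost without 5 of the 6 libraries in turn.

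**Figure D2:**
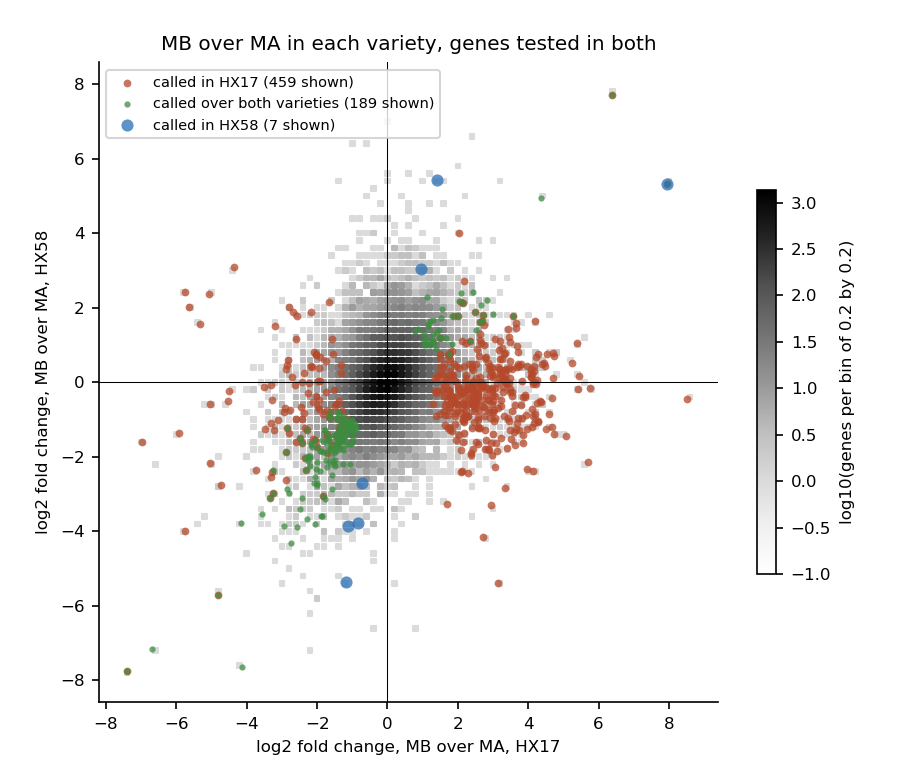
Log2 fold change of MB over MA in HX17 (x) and HX58 (y) for the 47440 genes tested in both, in grey by number of genes per bin, with called genes as points. Of the genes called in HX17, those that rose (352 of 442 shown) lie to the right and those that fell (107 of 122 shown) to the left. Of those tested in HX58, 139 of 352 and 32 of 107 were above 0 there, and the Kunitz inhibitor gene stood at 7.94 in HX17 and 5.32 in HX58.

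With 8 genes called in HX58, no more than 8 could be shared between the varieties. A single gene was called in the same direction in both by edgeR, against 215 by DESeq2. The 442 genes that rose in HX17 had a median log2 fold change of -0.24 in HX58 over the 352 tested there, with 139 above 0 and 213 below. The 122 genes that fell in HX17 had a median of -0.75 in HX58, with 75 of the 107 tested there below 0. At an adjusted p under 0.05 the lists shared 58 higher genes, 4.56% of those of HX17 and 6.18% of those of HX58, and 148 lower genes, 17.4% and 12.1%, while 1.76% and 2.29% of all genes tested in HX58 were higher and lower. Another 36 genes were higher in HX17 and lower in HX58, and 8 were lower in HX17 and higher in HX58.

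The gene called in both encodes a Kunitz-type trypsin inhibitor (BnaC06g33320D, C06, 33270048 to 33270704, plus strand; the match is a pea protein), of a family that blocks digestive proteases of insects. It had 185, 200 and 217 CPM in HX17_MB, against 1.07, 0.998 and 0.363 CPM in HX17_MA. In HX58 it had 208, 140 and 404 CPM in MB, against 5.76, 5.04 and 8.28 CPM in MA. All 6 MB libraries lay at least an order of magnitude above all 6 MA libraries. The log2 fold change was 7.94 ± 0.39 in HX17 (adjusted p = 2.86e-05), 5.32 ± 0.44 in HX58 (adjusted p = 0.00463) and 6.51 ± 0.54 over both (adjusted p = 0.000274). The call over both held with each of the 12 libraries left out, and the call in HX58 was kept only without HX58_MA replicate 2 or HX58_MB replicate 3.

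Over both varieties with variety as a covariate, 224 of 58025 genes (0.386%) were called, 73 higher (0.126%) and 151 lower (0.260%), and photosynthesis and growth genes stood among the lower ones. Such a call can rest on 1 variety. Of the 73 higher genes, 32 were also called higher in the fit of HX17, and BAP2 was called over both with 1 count in HX58_MB and 0 in HX58_MA. At an adjusted p under 0.05, 1372 genes (2.36%) were higher and 2088 (3.60%) lower. The libraries of MB and MA did not overlap in either variety, in the same direction, for 1357 genes with MB higher (2.34%) and 1602 with MB lower (2.76%). The direction of these counts depends on the scaling: with library totals the median of all genes moved to 0.23, the calls to 180 higher and 92 lower, and the genes without overlap to 3090 higher and 693 lower. The calls ranged from 48 without HX17_MB replicate 1 to 309 without HX58_MB replicate 3. They numbered 51 without HX17_MB replicate 3 or without HX58_MB replicate 1, 78 and 79 without HX58_MA replicate 1 or HX58_MB replicate 2, 87 and 90 without HX17_MA replicate 2 or HX17_MB replicate 2, and 143 and 147 without HX17_MA replicate 1 or HX58_MA replicate 3.

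Light-harvesting proteins, which bind chlorophyll around the photosystems, had medians below 0 in both varieties, and part of their loci fell. Over both, 12 of their 69 tested loci were called lower and 43 lower at an adjusted p under 0.05, with 0 higher at either limit and a median of -0.74, against 0.01 for all tested genes. The 12 calls became 18 without HX58_MB replicate 3, 7 without HX17_MA replicate 1, 4 without HX17_MA replicate 2, 1 without HX17_MB replicate 2 or HX58_MB replicate 2, and 0 without HX17_MB replicates 1 or 3, HX58_MA replicate 1 or HX58_MB replicate 1. In HX17 alone 4 of 67 loci were called lower, 0 or 1 without any library other than HX17_MA replicate 2. In HX58 alone edgeR called 0 of 69 and DESeq2 19 lower, with 15 lower at an adjusted p under 0.05 and 40 at an unadjusted p under 0.05. The median was -0.76 in HX17 and -0.80 in HX58. With library totals it was -0.54 over both, against 0.23 for all tested genes. With each of the 12 libraries left out it was -0.87 to -0.70 over both. LHCA1 on A09 (BnaA09g34720D), an antenna of photosystem I, had 871, 889 and 801 CPM in HX17_MB, against 1808, 1487 and 1446 CPM in HX17_MA. It had 865, 810 and 1204 CPM in HX58_MB, against 2456, 2490 and 2238 CPM in HX58_MA, and the log2 fold change over both was -1.10 ± 0.15 (n = 6 each, adjusted p = 0.00238), lost without 7 of the 12 libraries in turn (adjusted p up to 0.0084). MB lay below MA in every library of each variety, with HX58_MB replicate 3 nearest to MA. PSAF (BnaA07g06900D), a photosystem I subunit that docks plastocyanin, had 391, 385 and 279 CPM in HX17_MB, against 938, 923 and 841 CPM in HX17_MA. In HX58 it had 244, 242 and 380 CPM in MB, against 772, 604 and 711 CPM in MA, and its log2 fold change over both of -1.31 ± 0.16 (adjusted p = 0.00134) held with each library left out. The list of photosystem core and oxygen-evolving proteins had 101 of 107 loci below 0, a median of -0.45 and 1 call, PSAF itself. Calvin cycle enzymes had a median of -0.41 in HX17 and 0.15 in HX58 (-0.07 without HX58_MB replicate 3), and over both 0 of 63 loci were called by edgeR or DESeq2, with 4 higher and 6 lower at an unadjusted p under 0.05. The summed leaf markers, which share genes with the light-harvesting list, were also lower in MB of HX17, while in HX58 their ranges overlapped. The part of these markers in the results was not tested.

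Lists of ribosome and chromatin genes also had medians below 0. Core histone and cell cycle genes had 2 called lower loci of 125 over both, 47 lower and 0 higher at an adjusted p under 0.05, and a median of -0.94. The calls were 5 without HX58_MA replicate 2, 4 without HX58_MB replicate 3, 1 without HX17_MA replicates 1 or 2 or HX58_MA replicate 3, and 0 without any HX17_MB library, HX58_MA replicate 1 or HX58_MB replicates 1 or 2. A histone H2B gene (At5g59910, BnaA07g37520D) had 95.7, 109 and 86.9 CPM in HX17_MB, against 254, 225 and 261 CPM in HX17_MA. It had 51.0, 53.8 and 110 CPM in HX58_MB, against 217, 134 and 139 CPM in HX58_MA (log2 over both -1.27 ± 0.20, adjusted p = 0.0046), a call lost without 10 of the 12 libraries in turn (adjusted p up to 0.0156). Its groups were apart in each variety, and again HX58_MB replicate 3 came nearest to MA. Chloroplast ribosomal proteins had a median of -0.55, with 23 of 160 loci lower at an adjusted p under 0.05 and 88 lower at an unadjusted p under 0.05, of which edgeR called 0 and DESeq2 2. Cytosolic ribosomal proteins had 1 call in 836 loci and a median of -0.25, against 0.01 for all tested genes. With library totals these medians were -0.04 and 0.23.

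**Figure D3:**
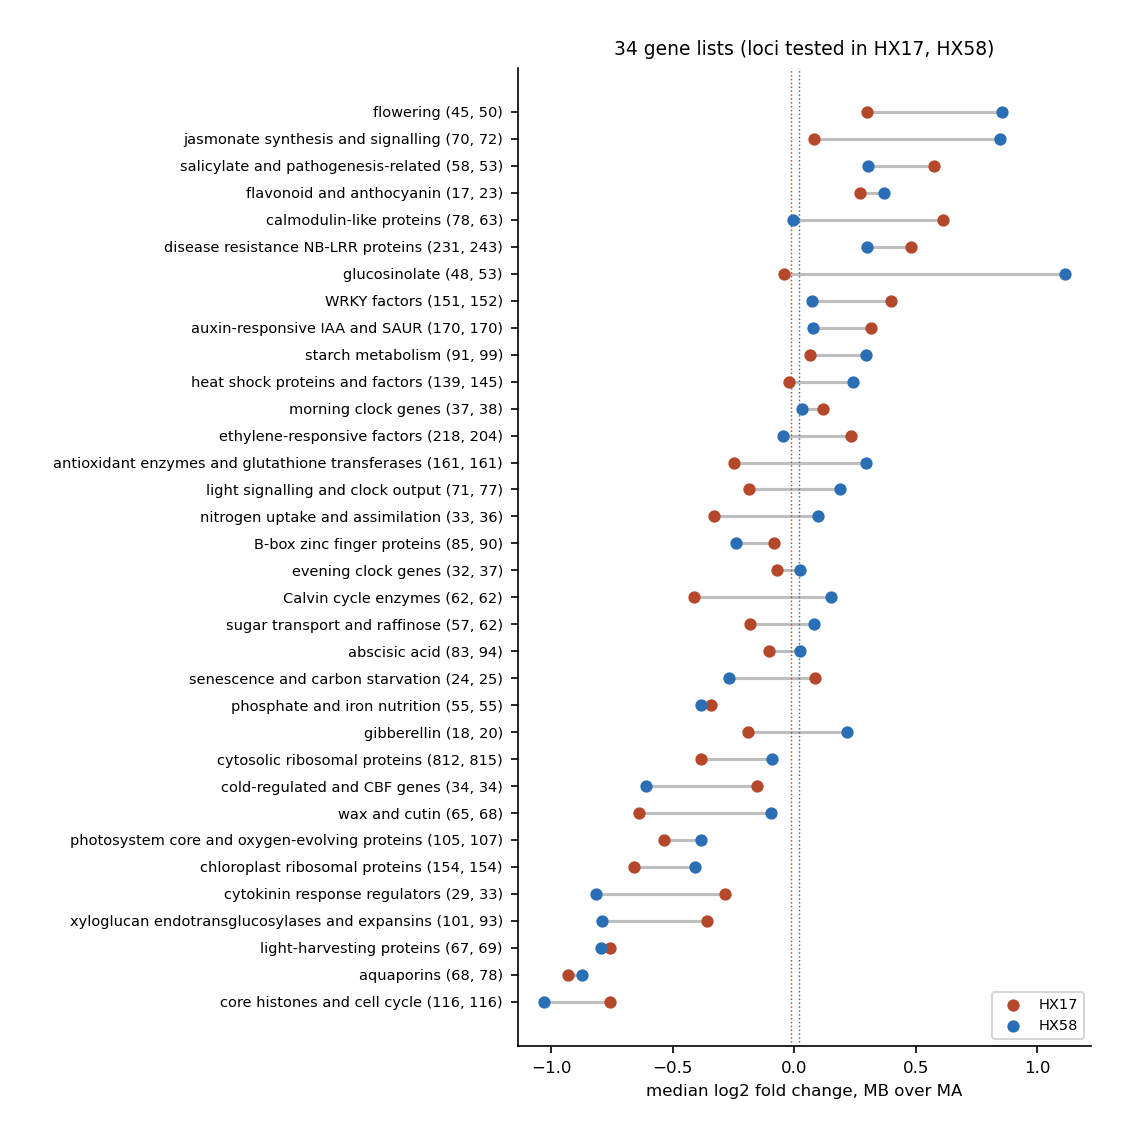
Median log2 fold change of MB over MA over the tested loci of 34 gene lists in HX17 (red) and HX58 (blue), with the numbers of loci tested beside each list and dotted lines at the medians of all tested genes. Histones, aquaporins, light-harvesting and chloroplast ribosomal proteins lie below 0 in both varieties, while calmodulin-like and WRKY medians are above 0 in HX17 and near 0 in HX58.

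Lists of water transport and cell expansion had medians below 0. Aquaporins, the water channels of membranes, had 0 calls in edgeR over both and 17 lower in DESeq2, with a median of -0.89. In edgeR 29 of the 80 loci were lower and 1 higher at an adjusted p under 0.05, and 48 lower at an unadjusted p under 0.05. The list of xyloglucan endotransglucosylases and expansins had 2 higher and 2 lower calls of 113 loci over both, 9 higher and 16 lower at an adjusted p under 0.05, and a median of -0.72. The higher loci were both of XTH18, a wall-remodelling enzyme, and are named because the count is small, after their values were seen. BnaC01g08120D had 1235 counts over the HX17_MB libraries, against 14 over HX17_MA, and 0 over HX58_MB, against 1 over HX58_MA. BnaC07g42520D had 709 counts over HX17_MB, against 21 over HX17_MA, and 1 over HX58_MB, against 0 over HX58_MA, so in HX58 both were at or under the floor of 3 counts and the calls rest on HX17. The lower calls were 0 without HX17_MA replicate 2, HX17_MB replicates 1 or 3, HX58_MA replicate 1 or HX58_MB replicates 1 or 2. They were of expansins, which loosen the wall of growing cells, and EXPA1 (BnaC06g30760D) had 86.4, 101 and 52.2 CPM in HX17_MB, against 181, 454 and 179 CPM in HX17_MA. In HX58 it had 55.4, 50.8 and 83.3 CPM in MB, against 626, 333 and 724 CPM in MA, a log2 fold change of -2.46 ± 0.35 over both (adjusted p = 0.00264). MB and MA did not overlap in either variety, and the call was lost without 6 of the 12 libraries in turn (adjusted p up to 0.00994). EXPA10 (BnaA09g29240D) fell by 2.95 ± 0.42 on the log2 scale over both (adjusted p = 0.00258), also lost without 6 of 12. Cytokinin response regulators had 9 lower and 0 higher of 34 at an adjusted p under 0.05 and a median of -0.59, with ARR15 (BnaA07g31820D) called at -2.98 ± 0.44 (adjusted p = 0.00325), lost without 8 of 12.

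Of the circadian clock, the morning genes did not pass the limits and an evening gene did. Morning clock genes had 0 calls of 39 loci in edgeR over both, with 5 higher and 4 lower at an adjusted p under 0.05 and 12 higher and 7 lower at an unadjusted p under 0.05, and DESeq2 called 2. LHY on A10 (BnaA10g00780D), a morning repressor, had 659, 498 and 856 CPM in HX17_MB, against 408, 338 and 409 CPM in HX17_MA, and 1220, 1138 and 1042 CPM in HX58_MB, against 632, 1064 and 642 CPM in HX58_MA (log2 over both 0.67 ± 0.18, adjusted p = 0.0401). CCA1 (BnaA05g01050D), its partner, had 228, 198 and 242 CPM in HX17_MB, against 190, 170 and 215 CPM in HX17_MA, and the groups overlapped in both varieties (log2 over both 0.12 ± 0.15, adjusted p = 0.657). GIGANTEA (GI, BnaC05g18020D), which links the clock to flowering, had 10.7, 9.07 and 7.37 CPM in HX17_MB, against 20.4, 28.7 and 36.5 CPM in HX17_MA. It had 11.8, 17.8 and 10.9 CPM in HX58_MB, against 42.6, 42 and 27.5 CPM in HX58_MA, and fell by 1.56 ± 0.19 on the log2 scale over both (adjusted p = 0.00142), the 1 call among 38 evening loci. GI was lower in every MB library than in any MA library of its variety. The call was lost only without HX58_MB replicate 1, at an adjusted p of 0.00597. Over both, 17 of the 38 evening loci were above 0 and 21 below, with a median of -0.10. At an adjusted p under 0.05, 0 of them were higher and 5 lower, and DESeq2 called 4 lower. Of 77 light signalling loci 3 fell, all of HYH, a partner of the light factor HY5. The calls on that list numbered 1 without HX17_MA replicate 2, any HX17_MB library or HX58_MB replicate 2, and 0 without HX58_MB replicate 1. HYH on A01 (BnaA01g27940D) had 7.42, 7.65 and 4.80 CPM in HX17_MB, against 15.6, 14.3 and 13.3 CPM in HX17_MA, and 11, 10.5 and 13.3 CPM in HX58_MB, against 32.5, 22.9 and 28.9 CPM in HX58_MA (log2 over both -1.20 ± 0.15, adjusted p = 0.00153, lost without HX58_MB replicate 1 at 0.00614).

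Of 36 cold-regulated and CBF loci tested over both varieties, 2 were called lower and 0 higher, although neither control had cold. Both were of COR15B, and they made up 5.56% of the list, against 0.386% of all tested genes. With 1 library left out, 0 to 2 loci were called lower. In HX17 alone the list had 5 loci called higher and 0 lower. COR15B on C03 (BnaC03g23750D), which protects chloroplast membranes on freezing, had 6.36, 7.0 and 3.31 CPM in HX17_MB, against 12.5, 20.4 and 21.5 CPM in HX17_MA. In HX58 it had 20.9, 14.9 and 34 CPM in MB, against 137, 102 and 101 CPM in MA, and fell by 2.00 ± 0.25 on the log2 scale over both (adjusted p = 0.00146, lost without HX58_MB replicate 1 at 0.00593). The second COR15B locus called (BnaA03g56750D) fell by 1.93 ± 0.27 (adjusted p = 0.00225, lost without 4 of the 12 libraries). In HX58 the cold list had 29 of 34 tested loci below 0 and a median of -0.61. Flowering genes went the other way, with 14 higher and 2 lower of 58 at an adjusted p under 0.05 over both and a median of 0.83. EdgeR called 0 of them and DESeq2 14, and 24 were higher and 7 lower at an unadjusted p under 0.05. FLC on C09 (BnaC09g46540D), the repressor of flowering that cold silences, had 50.04, 42.4 and 24 CPM in HX58_MB, against 13.2, 15.1 and 14.0 CPM in HX58_MA, where it did not overlap but was not called (log2 1.49 ± 0.27, adjusted p = 0.0257). In HX17 it had at most 0.327 CPM in any library and was not tested.

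The difference between the varieties was itself tested, as the MB over MA change in HX58 minus that in HX17. Of 58025 genes, 270 (0.465%) were called, 29 with a higher change in HX58 (0.05%) and 241 with a lower one (0.415%), and at an adjusted p under 0.05 there were 249 (0.429%) and 746 (1.29%). Of the 241, 186 (77.2%) were among the genes that rose in HX17, which is 42.1% of those, and 16 of the 29 were among the genes that fell there. Both tests used the same HX17 libraries, and the HX17 change is subtracted in the difference. This overlap is therefore partly built in and is no separate support. The count was 126 to 179 without HX17_MA replicate 1, HX17_MB replicates 2 or 3, HX58_MA replicate 1 or HX58_MB replicates 1 or 2, and 182 to 277 without any other library.

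WRKY33, ZAT10, CML30 and ERF genes were among those that differed between the varieties. All 6 tested loci of WRKY33 and all 4 of ZAT10 were called, as were 12 of 178 WRKY, 7 of 88 calmodulin-like and 6 of 248 ERF loci, all with the lower change in HX58. In HX58 the C03 locus of WRKY33 (BnaC03g21360D) had 5.96, 5.14 and 5.99 CPM in MB, against 18.6, 19.3 and 17.1 CPM in MA. MB was below MA there and above it in HX17, and the log2 changes of -1.66 ± 0.18 in HX58 (adjusted p = 0.00992) and 2.57 ± 0.23 in HX17 differed by -4.27 ± 0.29 (adjusted p = 1.2e-05). CML30 on C07 (BnaC07g25470D) had 0.0636, 0.112 and 0.113 CPM in HX58_MB, against 0.417, 0.627 and 0.117 CPM in HX58_MA, and the difference was -6.47 ± 0.59 (adjusted p = 6.52e-05). BHLH101 (BnaA07g29170D), a factor of the iron deficiency answer, had 0.721, 0.973 and 1.28 CPM in HX58_MB, against 4.46, 10.7 and 14.5 CPM in HX58_MA. It had 16.1, 15.7 and 10.6 CPM in HX17_MB, against 2.02, 1.26 and 2.18 CPM in HX17_MA, so the direction was opposite and the difference was -6.28 ± 0.57 (adjusted p = 6.52e-05). The sugar transporter gene ERD6 on A09 (BnaA09g48640D) had 1.74, 2.32 and 3.29 CPM in HX58_MB, against 8.39, 8.80 and 9.66 CPM in HX58_MA. In HX17 it had 58.7, 51.1 and 91.9 CPM in MB, against 9.33, 8.18 and 5.74 CPM in MA, a difference of -4.99 ± 0.40 (adjusted p = 4.74e-05). These calls held with each library left out.

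At the other end stood the DUF295 genes and LBD37. The C03 gene BnaC03g26530D had 3.27, 3.14 and 4.14 CPM in HX58_MB, against 0.527, 0.692 and 0.00 CPM in HX58_MA, and the change in HX58 exceeded that in HX17 by 7.37 ± 0.82 (adjusted p = 0.000292). Its A03 relative (BnaA03g22110D) had 3.33, 4.40 and 4.54 CPM in HX58_MB, against 0.615, 1.95 and 0.470 CPM in HX58_MA. In HX17 that gene had 0.148, 0.113 and 0.304 CPM in MB, against 6.07, 11 and 11.7 CPM in MA, and the difference was 7.63 ± 0.74 (adjusted p = 0.00011). MB was above MA in HX58 and below it in HX17 for both genes. Of the 6 tested loci of LBD37, 4 were called with the higher change in HX58.

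**Figure D4:**
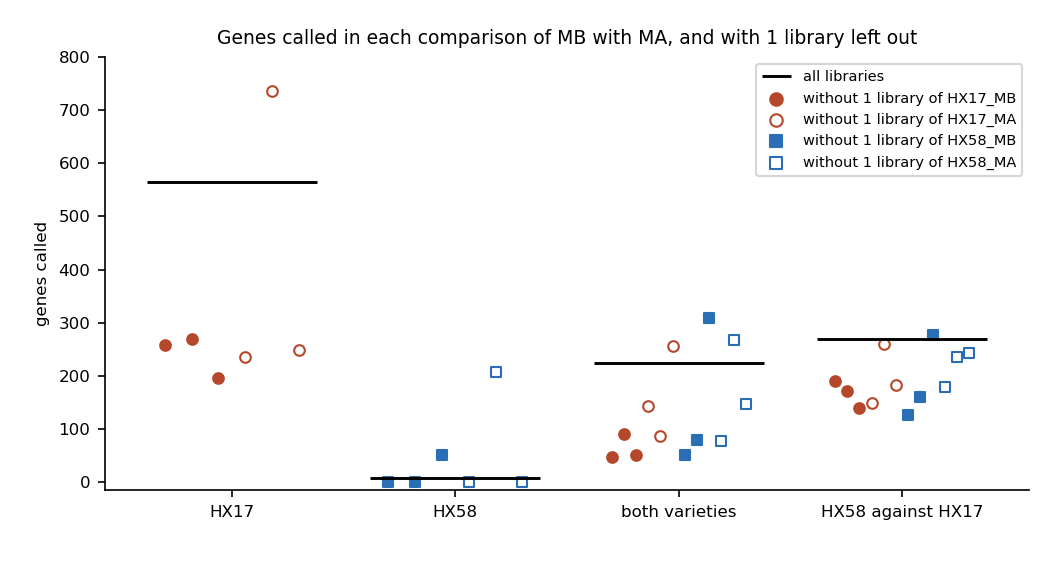
Genes called in HX17, in HX58, over both varieties and for the difference of HX58 from HX17, with all libraries (black line) and with each library left out (points by group). Leaving out HX17_MA replicate 2 gave 736 calls in HX17, leaving out HX58_MA replicate 2 gave 207 in HX58 and leaving out HX58_MB replicate 3 gave 309 over both.

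The deposited FPKM (fragments scaled to gene length and library size) place these control levels beside the cold-treated leaves, CB and CA (4° for 12 h) and FB and FA (-4° for 12 h), of which CA and FA had 14 days at 4° before. CB and FB share the control MB, and CA and FA the control MA, so the values are set side by side with no test. WRKY33 (BnaC03g21360D) had a median of 4.78 FPKM in CB, 18.8 in FB and 54.1 in MB of HX17, and 3.44 in CA, 31.8 in FA and 8.54 in MA. In HX58 it had a median of 1.99 FPKM in CB, 29.6 in FB and 4.29 in MB, and 3.34 in CA, 45.9 in FA and 12.2 in MA. In HX17 the freezing group FB thus lay below its control MB, while FA lay above its control MA, and in HX58 both freezing groups lay above their controls. ZAT10 (BnaA08g18790D) had a median of 265 FPKM in FB and 64.0 in MB of HX17, and 58.3 in FA and 6.12 in MA. ERF104 (BnaC02g48800D) had a median of 77.9 FPKM in HX17_MB and at most 5.54 in any library of the 11 other groups. It was thus high in that control group alone.

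The Kunitz inhibitor gene (BnaC06g33320D) had a median of 0.00 FPKM in CB, 0.0852 in FB and 301 in MB of HX17, and 2.62 in CA, 2.23 in FA and 1.31 in MA. In HX58 it had a median of 0.00 FPKM in CB, 0.438 in FB and 371 in MB, and 14.2 in CA, 63.0 in FA and 8.22 in MA. In each variety its highest levels were those of MB, at 289 to 358 FPKM in HX17 and 261 to 597 in HX58, and CB and FB lay far below that control. In HX58 FA, at 14.3 to 70.2 FPKM, lay above its control MA, at 7.56 to 13.3. COR15B (BnaC03g23750D) had a median of 3496 FPKM in CB, 5490 in FB and 15.2 in MB of HX17, and 2095 in CA, 640 in FA and 42.5 in MA. In HX58 it had a median of 3585 FPKM in CB, 5615 in FB and 57.0 in MB. The medians of the other HX58 groups were 3474 in CA, 877 in FA and 250 in MA. Every cold group lay above both controls of its variety, but the size of a rise depends on which control is used. PSAF (BnaA07g06900D) had a median of 188 FPKM in CB, 197 in FB and 584 in MB of HX17, and 643 in CA, 572 in FA and 1165 in MA. The PSAF median of MB in HX17 lay near those of the acclimated cold groups CA and FA.

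**Figure D5:**
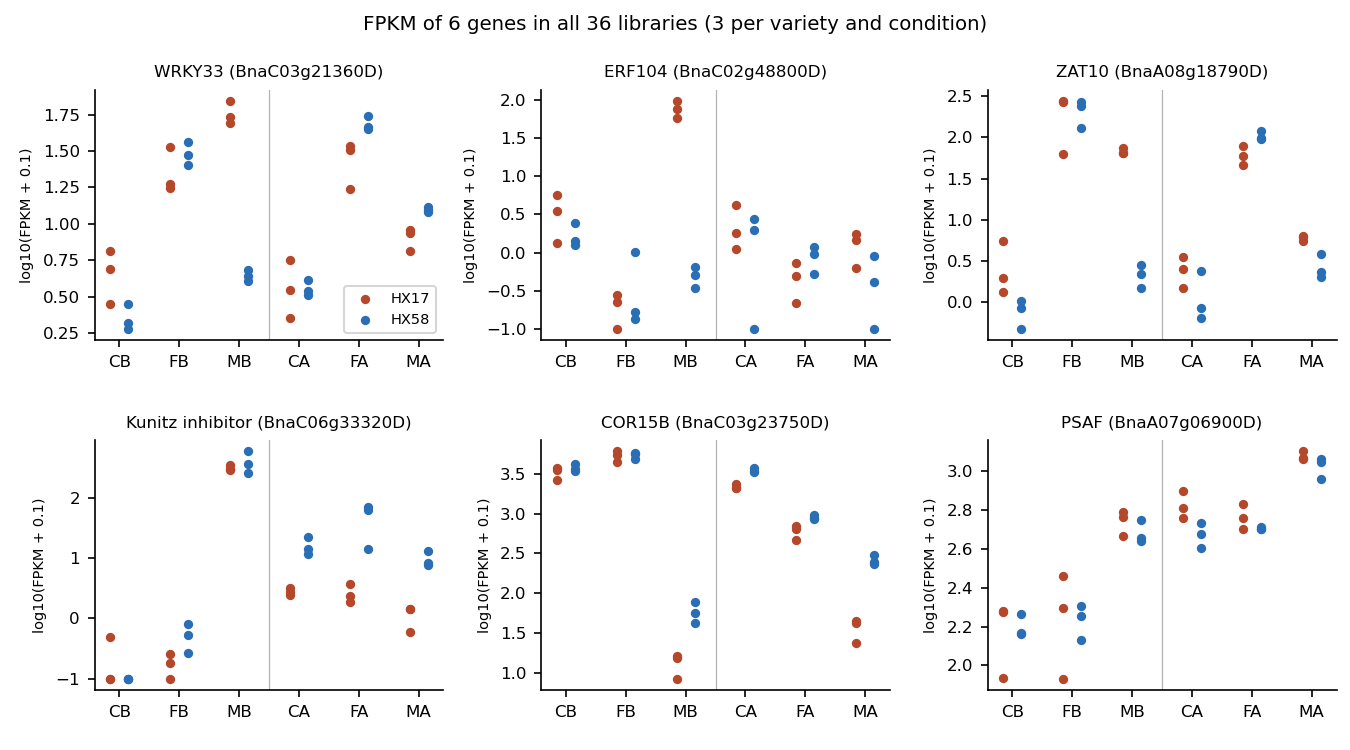
Deposited FPKM of 6 genes in all 36 libraries as log10(FPKM + 0.1), with CB and FB left of their control MB and CA and FA left of their control MA, HX17 in red and HX58 in blue. WRKY33 and ERF104 are high in HX17_MB, the Kunitz inhibitor is highest in MB of both varieties, and COR15B is high in every cold-treated group.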

How the data were processed

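Leaf RNA of 36 libraries was sequenced as paired reads (Illumina), and the 12 control libraries were compared. The authors aligned reads with HISAT2 2.0.4 and counted them per gene with HTSeq 0.9.1 (submitters' processing notes). The genome is that of Genoscope, and its version and the strand setting of the counting are not stated. The deposited counts are raw, for 106340 genes, 5300 of them new transcripts, and 71010 have a Swiss-Prot match. The deposited FPKM, computed by the authors from those counts and gene length, serve for levels in all groups. The authors' fold changes, p-values and calls from DESeq were not used.

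Counts were tested with edgeR 4.0.16 in R 4.3.3 (TMM scaling, filterByExpr at min.count 10 and min.total.count 15, glmQLFit, glmQLFTest, Benjamini-Hochberg adjustment over all tested genes): MB against MA within each variety (6 libraries), over both with variety as covariate, and the interaction of variety and control group (12 libraries). The SE is the absolute log2 fold change divided by the square root of F. The code was tested on simulated counts. Lists of loci were matched by Swiss-Prot name and are described by counts and medians only. Ratios for genes with 1 to 3 counts in a group carry exact 95% intervals of counting error alone. The totals of 32214015 counts or more limit precision less than the 3 libraries a group.

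Genes named had a mean CPM of 1 or more: those called in both varieties, the 5 steepest in each direction in either variety and in the interaction, for each list up to 4 called loci by CPM (else the most counted locus), and core clock genes, PIF4, CDF1, COR27 and FLC. Some qualify by list only, and proteins with 3 or more called loci are counted. The genes and lists were chosen with earlier results of these data known. For a called gene, a lack of overlap between MB and MA libraries describes its values and is no separate support. Alternatives were DESeq2 1.42.0, other scalings, filters, thresholds and models, thinning to equal depth, a replicate block and each library left out. Python 3.11.15 (pandas 2.3.3, numpy 2.4.6, scipy 1.17.1, matplotlib 3.10.9) made tables and figures.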

Additional observations from a re-analysis of the deposited data

Results flagged for a closer look

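The change of MB over MA differed between HX58 and HX17 by the interaction test of edgeR for 270 genes, among them 36 of the genes named by rule. All values here are the log2 fold change of MB over MA in HX58 minus that in HX17. WRKY33 (BnaC03g21360D) gave -4.27, WRKY53 (BnaA01g13440D) -4.27 and WRKY18 (BnaA01g05060D) -3.29. Ethylene factors gave -7.78 for ERF105 (BnaC09g27360D), -5.97 for ERF104 (BnaC02g48800D) and -4.91 for ERF5 (BnaA06g40170D). Calcium sensors gave -6.47 and -3.05 for CML30 (BnaC07g25470D and BnaA06g31120D) and -4.71 for CML45 (BnaC06g12520D), and ZAT10 gave -3.77 and -2.68 (BnaA08g18790D and BnaA09g27780D). Resistance genes gave -4.62 and -2.40 for At4g33300 (BnaA01g03580D and BnaA08g11840D) and -3.38 and -2.53 for At5g66900 (BnaA06g28070D and BnaC02g16530D). Further factors gave -2.62 for MYC2 (BnaC08g07580D), -6.28 for BHLH101 (BnaA07g29170D), -4.47 for BBX32 (BnaA05g19900D), -2.88 for COL16 (BnaCnng24470D) and -2.02 for VQ22 (BnaAnng36180D). The sugar transporter ERD6 gave -4.99 and -3.82 (BnaA09g48640D and BnaC08g42900D), the wall enzyme XTH22 -6.11 (BnaA10g11500D), the copper chaperone CCS -4.37 (BnaC09g10980D) and the IQD22 gene -2.99 (BnaC01g41430D). GATL10 gave -10.06 and -8.55 (BnaA06g31630D and BnaC09g01660D), CYP707A3 -9.04 (BnaCnng57040D) and a hypothetical gene -8.03 (BnaC07g31880D). The last 4 rest on 0, 1, 1 and 3 counts over the HX58_MB libraries, so their fitted sizes depend on the prior count and are no bounds. With a higher change in HX58 stood DUF295 genes at 8.15, 7.63 and 7.37 (BnaC03g26490D, BnaA03g22110D and BnaC03g26530D), Cox19-like genes at 7.40 and 6.86 (BnaC09g47040D and BnaA10g22470D), a hypothetical gene at 3.96 (BnaA06g32290D) and NIR1 at 3.20 (BnaA07g36300D). Of these 36 calls, 23 held with each of the 12 libraries left out. With 3 libraries a group, single libraries were not tested as outliers.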

How the results depend on the processing

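Leaving out 1 library at a time gave 197 to 736 calls in HX17 (564 with all), 0 to 207 in HX58 (8), 48 to 309 over both (224), 126 to 277 for the difference between varieties (270), 0 to 4 calls shared by the varieties (1), 3286 to 5304 genes without overlap of libraries (2959) and 14 to 25 lists with a called locus (21). DESeq2 called 2049, 2339, 1814 and 1107 genes in HX17, in HX58, over both and for the difference, and the looser limit of an adjusted p under 0.05, whatever the fold, 2124, 2158, 3460 and 995. Without a filter on low counts the numbers were 1241, 610, 611 and 495. HX58 alone also moved to 177 in 1 model of the 12 libraries, 429 in 1 model of 36, 19 with glmTreat (adjusted p under 0.05 against a 2-fold change), 4 with library totals, 3 with a mean CPM of 1 or more and 5 after thinning. Over both, 1 model of 36 libraries called 834 and glmTreat 69. Same-direction calls in both varieties numbered 10 and 39 in the 12- and 36-library models, 215 with DESeq2, 206 at the looser limit, 2 with library totals, 0 with a mean CPM of 1 or more and 71 without a filter. Of the 34 lists, 21 had a called locus in either variety, 34 with DESeq2 and 33 at the looser limit.

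The replicate block called 506, 80, 32 and 195 genes and 4 in both varieties, but same-numbered MB and MA libraries deviated together weakly or not at all, with correlations of -0.002 to 0.02 in HX17 and -0.12 to 0.12 in HX58, and not every library correlated best with its own number, so the numbers do not pair the samples. No called value reversed its sign. Of the named calls, 35 of 68 in HX17, 0 of 8 in HX58, 3 of 28 over both and 23 of 36 for the difference were kept with every library left out. The causes of these shifts were not tested. With 3 libraries a group, a missing call does not show equal levels.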
